A study of Mus musculus with 6 samples.

Results

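The genes described here belong to the tumour necrosis factor (TNF) family of ligands and receptors, measured in the RNA of CD3+ T cell isolates from mouse spleen. The rule named 10 genes by symbol, and 8 of them are in the deposited table of 8468 genes: the ligands Tnf, Fasl, Cd40lg, Tnfsf8, Tnfsf10 and Tnfsf14 and the receptors Tnfrsf4 and Tnfrsf18. Tnfrsf9 and Tnfrsf1b were not analysed here. All 8 passed the filter on low values, which asks for at least 1 FPKM (reads scaled to gene length and to the reads of the library) in at least 3 libraries. The spleens came from Balb/c hosts after haematopoietic stem cell transplantation (HSCT), and the labels give Balb/c as the strain of every sample. In the allo-HSCT group (3 libraries) the donor was C57BL/6, and in the syn-HSCT group (3 libraries) the donor was Balb/c, so donor strain and type of transplant cannot be told apart. The time after transplant, the conditioning of the hosts, the age of the mice and the share of donor and host cells in each isolate are not stated in the labels. Nor is it stated whether the 3 libraries of a group represent 3 mice, and the p-values therefore describe the spread of these libraries alone, part or all of which may be technical.

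TNF family ligands are mostly membrane proteins that act as trimers, and some are also shed into the medium. Their receptors either carry a death domain, which can start apoptosis, or recruit TRAF adaptor proteins, which lead to NF-κB and MAP kinase signalling and so to survival, proliferation and cytokine production. In T cells, Fas ligand and TRAIL kill target cells, CD40 ligand licenses antigen-presenting cells and B cells, and OX40 and GITR give costimulation. Several members, TNF and Fas ligand among them, are known mediators of graft-versus-host disease.

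Of the 8 genes, Tnf fell in allo-HSCT and the other 7 rose, by 1.21-fold to 2.04-fold in mean FPKM. This count was read from a limma fit on log2(FPKM + 1) across all tested genes, with Benjamini-Hochberg adjusted p under 0.05 as the threshold. The background is high: 93.7% of the 5460 genes tested passed, 47.9% higher and 45.8% lower, because the table appears to hold mainly genes that already differ between the groups. In all 8 the libraries of the groups did not overlap, as was the case for 91.0% of the genes tested. A count of 8 out of 8 is therefore near the background and is no result about these genes; their sizes, directions and levels are what follows. Their median log2 fold change was 0.63, against 0.20 over all tested genes and 0.82 over the 14 T cell markers tested. For 4825 genes with a mean above 100 reads, no log2 ratio of group means lay between -0.37 and 0.21. The median over all genes thus falls near an empty stretch and marks no typical gene. The difference between these medians is therefore no result either.

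A second scale matters for every rise below. The T cell genes themselves rose in allo-HSCT: Cd3d was 1.75-fold, Cd3e 1.85-fold and Cd3g 1.58-fold higher in mean FPKM. All 14 measured T cell markers of 17 rose, and their summed level went from between 1599 and 1687 FPKM in the syn-HSCT libraries to between 2813 and 2868 in the allo-HSCT libraries. When each library was scaled to the mean level of the 3 Cd3 genes, the median log2 fold change of all tested genes moved from 0.20 to -0.50. On that scale 4 of the 8 genes passed the threshold, all lower (Tnf, Tnfsf8, Tnfrsf4 and Tnfrsf18), and Fasl, Cd40lg, Tnfsf10 and Tnfsf14 did not pass. Over all genes tested on that scale 80.2% passed, 5.05% higher and 75.1% lower. The scale depends on its reference genes. Log2 fold changes of the 14 T cell markers ran from 0.42 for Lat to 1.62 for Cd8a. In allo-HSCT replicates 1 to 3, Cd3d stood at 240, 176 and 184 FPKM, but Cd3e at 158, 194 and 194. Scaling to other T cell genes was not tested. Each value is of a whole isolate, in which fewer cells of a type and less RNA per cell cannot be told apart.

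**Figure D1:**
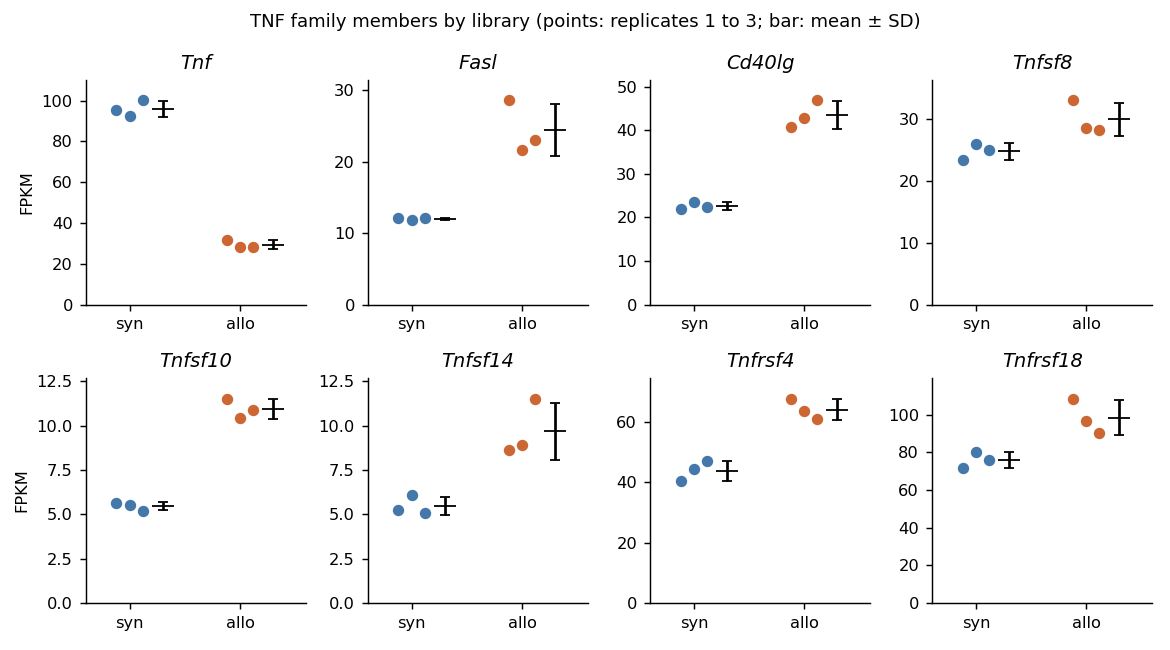
FPKM (vertical axis, from 0) of the 8 TNF family genes in the 3 syn-HSCT and 3 allo-HSCT libraries; points are replicates 1 to 3 and bars are mean ± SD. Tnf lies between 92.5 and 100.2 FPKM in syn-HSCT and between 28.1 and 31.8 in allo-HSCT, and the groups do not overlap in any of the 8 panels.

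Promoter sequences from RefSeq (build GRCm38.p6) were found for 7 of the 8 genes, and 5 are shown because they belong to the gene that fell, Tnf, to a killing ligand that rose, Fasl, to the only one with an AP-1 match, Tnfsf14, and to the neighbouring receptor genes that rose together, Tnfrsf4 and Tnfrsf18. Each line is the 250 bases before the annotated start, written 5′ to 3′ on the gene's own strand, with motif matches in capitals. Tnf is at chr17:35202008-35202257 (minus strand), Fasl at chr1:161788496-161788745 (minus), Tnfsf14 at chr17:57194182-57194431 (minus), Tnfrsf4 at chr4:156013445-156013694 (plus) and Tnfrsf18 at chr4:156026072-156026321 (plus).
Tnf: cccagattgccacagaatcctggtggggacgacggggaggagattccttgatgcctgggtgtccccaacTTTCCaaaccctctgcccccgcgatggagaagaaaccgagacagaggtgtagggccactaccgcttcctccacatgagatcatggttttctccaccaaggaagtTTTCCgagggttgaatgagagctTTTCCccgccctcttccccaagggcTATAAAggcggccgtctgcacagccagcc
Fasl: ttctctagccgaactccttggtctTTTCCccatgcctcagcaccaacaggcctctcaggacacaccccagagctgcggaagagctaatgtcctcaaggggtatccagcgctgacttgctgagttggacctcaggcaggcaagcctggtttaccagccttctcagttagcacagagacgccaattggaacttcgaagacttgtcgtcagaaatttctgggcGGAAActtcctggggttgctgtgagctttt
Tnfsf14: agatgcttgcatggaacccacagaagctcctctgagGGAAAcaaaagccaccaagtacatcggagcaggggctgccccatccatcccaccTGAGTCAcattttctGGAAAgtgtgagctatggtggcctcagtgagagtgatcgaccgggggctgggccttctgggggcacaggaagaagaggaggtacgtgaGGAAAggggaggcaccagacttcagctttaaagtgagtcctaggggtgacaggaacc
Tnfrsf4: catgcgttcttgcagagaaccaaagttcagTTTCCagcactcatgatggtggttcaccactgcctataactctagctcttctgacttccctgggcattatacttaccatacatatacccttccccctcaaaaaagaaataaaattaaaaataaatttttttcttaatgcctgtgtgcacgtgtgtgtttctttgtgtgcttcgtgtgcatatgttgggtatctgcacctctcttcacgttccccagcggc
Tnfrsf18: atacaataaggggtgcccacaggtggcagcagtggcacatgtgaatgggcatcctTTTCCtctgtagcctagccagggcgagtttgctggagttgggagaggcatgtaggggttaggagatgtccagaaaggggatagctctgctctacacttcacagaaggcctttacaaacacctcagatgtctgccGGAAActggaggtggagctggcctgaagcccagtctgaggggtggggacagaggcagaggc
The capitals mark GGAAA, the core that NFAT factors bind, and TGANTCA, the AP-1 element, each searched on both strands, and TATAAA, the TATA box, searched on the gene's strand. An NF-κB form, GGG and TTCC with any 3 bases between them, was searched on both strands too, and its reverse can share bases with GGAAA. The NFAT core occurred in all 7 windows and in 55.6% of the 32851 mouse promoter windows of this length. Tnf held 3 such matches, beginning 181, 77 and 54 bases before the start. TATAAA occurred in the Tnf window, 29 bases before the start, in none of the other 6, and in 7.59% of all windows. TGANTCA occurred in the Tnfsf14 window, 160 bases before the start, and in 6.75% of all windows. The NF-κB form was in none of the 7 windows and in 4.65% of all windows. These are letter matches in short windows of the reference build, whose bases may differ from those of Balb/c mice. They say nothing of whether a factor was bound in these cells.

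Tnf, the cytokine that names the family and acts through TNFR1 and TNFR2, stood at 95.3, 92.5 and 100.2 FPKM in syn-HSCT replicates 1 to 3. It stood at 31.8, 28.1 and 28.2 FPKM in allo-HSCT replicates 1 to 3. The groups lie far apart, and allo-HSCT replicate 1 is the highest of its group, 0.17 above the mean of the other replicates in log2(FPKM + 1). The means were 96.0 ± 3.91 and 29.3 ± 2.13 FPKM (SD, n = 3 each), 3.27-fold lower in allo-HSCT, with a log2 fold change of -1.68 (SE 0.0784, limma adjusted p = 1.03e-07). These values rest on 7864 reads in syn-HSCT and 2445 in allo-HSCT. On the Cd3 scale the log2 fold change was -2.44.

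Macrophages and monocytes are another source of Tnf, and most of their measured markers fell with it, by unlike amounts. Of 17 fixed markers 10 were in the table, 9 of them lower and Ly6c2 higher, and their summed level was 1922 to 2515 FPKM over the syn-HSCT and 582 to 814 over the allo-HSCT libraries. None of these 10 was at 0 in any library. The mean of Cd14, an endotoxin coreceptor, was 74.9 FPKM in the syn-HSCT and 8.75 in the allo-HSCT libraries, and that of Lyz2, a lysozyme gene, 1634 and 217. Lyz2 thus made up most of the summed level in syn-HSCT. The 9 falls ran from 1.31-fold for Csf1r to 10.4-fold for F13a1, against 3.27-fold for Tnf. Cd68 and Fcgr1 fell only 1.32-fold and 1.33-fold. Genes of the immediate early and heat shock responses, set off by activation as well as by handling of cells, fell too, 11 of 11 tested, from a sum of 2609 to 2715 FPKM to one of 1306 to 1582. The part of either in the fall of Tnf was not tested.

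Fasl, the ligand of the death receptor Fas on cytotoxic T and NK cells, stood at 12.1, 11.8 and 12.1 FPKM in the syn-HSCT libraries. In the allo-HSCT libraries it stood at 28.6, 21.6 and 23.1 FPKM. Every allo-HSCT library lies above every syn-HSCT library, and replicate 1 is the highest, 0.34 above the mean of the other allo-HSCT replicates in log2(FPKM + 1). The mean rose 2.04-fold, from 12.0013 ± 0.183 to 24.4 ± 3.69 FPKM (SD, n = 3 each; log2 fold change 0.96, SE 0.101, limma adjusted p = 2.09e-05). Relative to the Cd3 genes the log2 fold change was 0.23 (limma adjusted p = 0.0505). The cytotoxic coreceptor genes Cd8a and Cd8b1 rose more than Fasl in the same libraries, 3.15-fold and 2.90-fold. NK cells are another source of Fasl. Of 7 NK cell markers tested 4 fell: Ncr1 (3.58-fold), Tyrobp (3.44-fold), Klre1 (2.83-fold) and Eomes (1.74-fold). The other 3 rose: Nkg7 (1.93-fold), Klrb1c (1.91-fold) and Gzma (1.33-fold). The sums of the list were 800.1 to 859 FPKM over the syn-HSCT and 638 to 819 over the allo-HSCT libraries. Tyrobp was the largest part of the sum in syn-HSCT, with a mean of 456 FPKM. The part of NK cells was not tested.

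Tnfsf10, which encodes the death ligand TRAIL, stood at 5.61, 5.53 and 5.19 FPKM in syn-HSCT and at 11.5, 10.4 and 10.9 FPKM in allo-HSCT. The libraries of each group lie close together and the groups are far apart. Its mean rose 2.01-fold (log2 fold change 0.89, SE 0.0764, limma adjusted p = 5.06e-06), almost the fold of Fasl at a lower level. On the Cd3 scale it was 0.21 (limma adjusted p = 0.0665). Their main death receptors, Fas and Tnfrsf10b, were not analysed here.

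Cd40lg, by which activated helper T cells signal to CD40 on B cells, dendritic cells and macrophages, stood at 21.9, 23.6 and 22.5 FPKM in syn-HSCT. It stood at 40.7, 42.8 and 46.9 FPKM in allo-HSCT. Allo-HSCT replicate 1, the highest of its group for Fasl, is the lowest for Cd40lg, by 0.13 in log2(FPKM + 1) below the mean of the other replicates. The mean rose 1.92-fold, from 22.6 ± 0.882 to 43.5 ± 3.16 FPKM (SD, n = 3 each; log2 fold change 0.91, SE 0.0783, limma adjusted p = 5.11e-06). Scaled to Cd3, the log2 fold change was 0.16 (limma adjusted p = 0.175). The helper coreceptor gene Cd4 rose 1.74-fold in the same libraries.

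Tnfsf14 encodes LIGHT, a costimulatory ligand of HVEM and the lymphotoxin β receptor. It stood at 5.23, 6.08 and 5.10 FPKM in syn-HSCT and at 8.61, 8.93 and 11.5 FPKM in allo-HSCT. Allo-HSCT replicate 3 is the highest library, and the groups do not overlap. It rose 1.77-fold (log2 fold change 0.72, SE 0.113, limma adjusted p = 2.75e-04), and relative to the Cd3 genes the log2 fold change was 0.04 (limma adjusted p = 0.785).

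Tnfsf8, the ligand of CD30 on activated T cells, showed the smallest difference of the 8. It stood at 23.3, 25.95 and 25.0 FPKM in syn-HSCT and at 33.0, 28.5 and 28.2 FPKM in allo-HSCT, so the groups are separate by a narrow margin. The mean rose 1.21-fold (log2 fold change 0.26, SE 0.0850, limma adjusted p = 0.0150). Without syn-HSCT replicate 1 the call was lost (log2 fold change 0.22, limma adjusted p = 0.0661), and relative to the Cd3 genes the log2 fold change was -0.49, close to the median of all genes on that scale.

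Tnfrsf4 and Tnfrsf18 encode OX40 and GITR, costimulatory receptors found on activated effector and regulatory T cells. Tnfrsf4 stood at 40.3, 44.4 and 47.0 FPKM in syn-HSCT and at 67.8, 63.7 and 60.9 FPKM in allo-HSCT. Tnfrsf18 stood at 71.7, 80.1 and 76.0 FPKM in syn-HSCT and at 109, 96.6 and 90.5 FPKM in allo-HSCT. For both receptors all allo-HSCT libraries lie above all syn-HSCT libraries, and allo-HSCT replicate 1 is the highest. Tnfrsf4 rose 1.46-fold (log2 fold change 0.54, SE 0.0822, limma adjusted p = 2.30e-04). Tnfrsf18 rose 1.30-fold (log2 fold change 0.37, SE 0.0878, limma adjusted p = 0.00297). With Cd3 scaling both were lower, with log2 fold changes of -0.22 (limma adjusted p = 0.0418) and -0.40 (limma adjusted p = 0.00142). The T cell marker Lat rose less than Tnfrsf4, with a log2 fold change of 0.42, so the sign for Tnfrsf4 can depend on the reference genes.

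FPKM is per gene length, so the 8 levels can be ordered within a group. In syn-HSCT, Tnf had the highest FPKM, followed by Tnfrsf18, Tnfrsf4, Tnfsf8, Cd40lg, Fasl, Tnfsf14 and Tnfsf10. In that order Tnfsf8 and Cd40lg overlapped between libraries, as did Tnfsf14 and Tnfsf10, and the other neighbours were separate. In allo-HSCT the order was Tnfrsf18, Tnfrsf4, Cd40lg, Tnfsf8, Tnf, Fasl, Tnfsf10 and Tnfsf14. There Tnfsf8 overlapped with Tnf, Tnf with Fasl, and Tnfsf10 with Tnfsf14. Tnf thus went from rank 1 to rank 5 of the 8, and Cd40lg from rank 5 to rank 3.

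The wider family was followed through 46 fixed ligand and receptor genes, the 8 included, of which 36 were in the table and 27 passed the low-value filter. Of the 27, 16 rose, 9 fell and 2 (Lta and Cd40) did not pass. Among 12 tested ligands 7 rose and 4 fell, and among 15 tested receptors 9 rose and 5 fell. The whole table shows the same kind of split (47.9% higher, 45.8% lower), so these counts say nothing particular of either role. After Cd3 scaling none of the 27 was called higher, near the background of 5.05% on that scale.

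**Figure D2:**
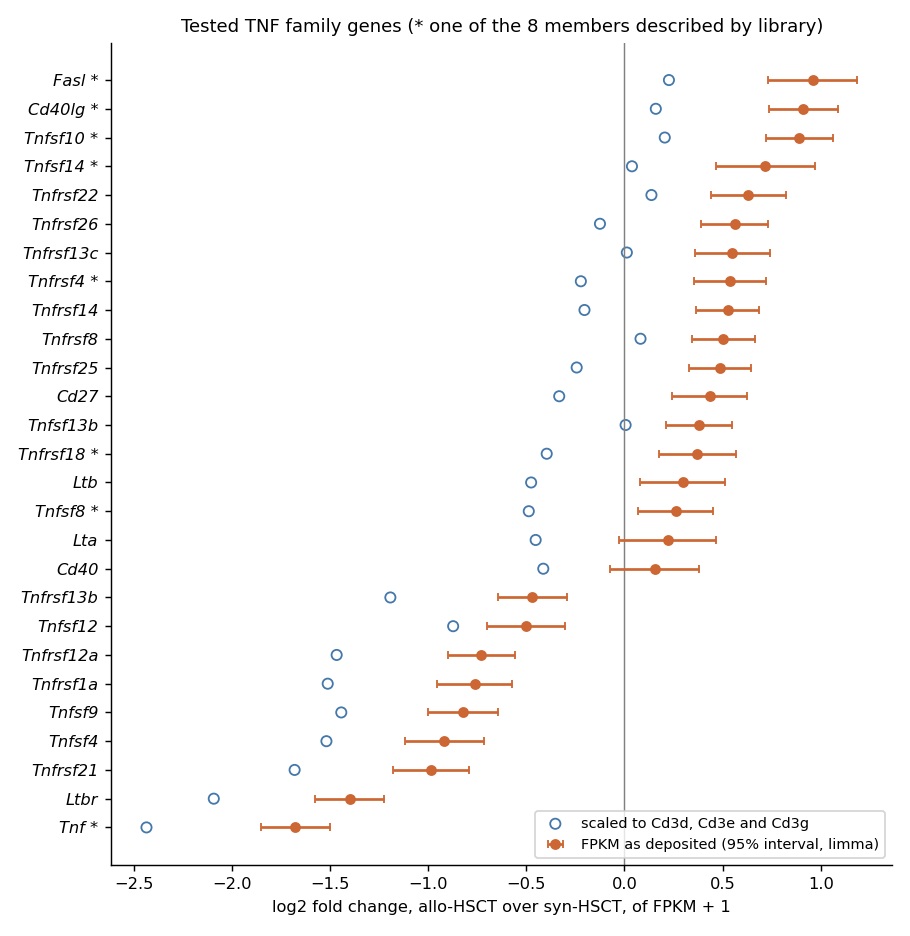
Log2 fold change of FPKM + 1, allo-HSCT over syn-HSCT, for the 27 tested TNF family genes (filled points with 95% intervals from limma) and the value after scaling each library to Cd3d, Cd3e and Cd3g (open points). The filled points run from -1.68 for Tnf to 0.96 for Fasl, and on the Cd3 scale Tnf remains the lowest, at -2.44, while Fasl is at 0.23.

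Among the other ligands, Ltb, a subunit of membrane lymphotoxin, was the most abundant family gene, with a mean of 185 ± 10.5 FPKM over the syn-HSCT and 229 ± 25.4 over the allo-HSCT libraries (SD, n = 3 each; log2 fold change 0.30, limma adjusted p = 0.0155). That rise did not hold without allo-HSCT replicate 3 (limma adjusted p = 0.0725) or without syn-HSCT replicate 2 (limma adjusted p = 0.0747). Lta, which encodes lymphotoxin α, ranged from 5.26 to 6.76 FPKM over the syn-HSCT and from 6.31 to 8.20 over the allo-HSCT libraries, which overlap, with a 95% interval of the log2 difference from -0.03 to 0.47. Tnfsf13b, which encodes the B cell survival factor BAFF, rose 1.73-fold from a low 0.711 to 1.23 FPKM.

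The ligands that fell, besides Tnf, were Tnfsf4, Tnfsf9 and Tnfsf12. Tnfsf4, the OX40 ligand carried by antigen-presenting cells and some T cells, fell 2.24-fold, from 5.53 ± 0.190 to 2.47 ± 0.347 FPKM (SD, n = 3 each; log2 fold change -0.92, SE 0.0899, limma adjusted p = 1.26e-05). Tnfsf9, the 4-1BB ligand, fell 2.02-fold, from 6.17 ± 0.332 to 3.05 ± 0.198 FPKM (SD, n = 3 each; log2 fold change -0.82, SE 0.0795, limma adjusted p = 1.15e-05). Tnfsf12, which encodes TWEAK, fell from 1.34 to 0.656 FPKM and is uncertain, since it lies next to Tnfsf13 with no coding gene between them and reads of the pair may be shared.

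The other 5 ligands in the table, Cd70, Tnfsf13, Tnfsf15, Tnfsf18 and Eda, were too low to test. Cd70, the ligand of CD27 on activated lymphocytes, had 2, 2 and 1 reads in the syn-HSCT libraries and 12, 20 and 16 in the allo-HSCT libraries. Tnfsf18, the GITR ligand, had 8 reads over all syn-HSCT and 12 over all allo-HSCT libraries.

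Among the other 13 tested receptors 7 rose and 5 fell. Cd27, a costimulatory receptor of naive and memory T cells, rose 1.35-fold, from 69.2 ± 6.64 to 93.5 ± 3.09 FPKM (SD, n = 3 each; limma adjusted p = 0.00111). Tnfrsf14, which encodes HVEM, rose 1.47-fold from 13.6 to 20.0009 FPKM, Tnfrsf25, which encodes the costimulatory receptor DR3, 1.43-fold from 13.4 to 19.2, and Tnfrsf8, which encodes CD30, 1.90-fold from 0.874 to 1.66. Tnfrsf13c, the BAFF receptor of B cells, rose 1.73-fold from 1.74 to 3.01 FPKM. B cell and plasma cell markers moved with it, 6 higher and 2 lower of 8 tested, with sums of 243 to 255 FPKM over the syn-HSCT and 285 to 367 over the allo-HSCT libraries, and their part was not tested. Tnfrsf22 (1.98-fold) and Tnfrsf26 (1.55-fold), decoy receptors of TRAIL in the mouse or close relatives of them, are uncertain because near copies lie side by side and reads may be split. Relative to the Cd3 genes, Cd27, Tnfrsf14, Tnfrsf25 and Tnfrsf26 had log2 fold changes below 0.

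The 5 that fell were Ltbr, Tnfrsf1a, Tnfrsf21, Tnfrsf12a and Tnfrsf13b. Ltbr, the lymphotoxin β receptor of stromal and myeloid cells, which lymphocytes largely lack, stood at 18.5, 16.1 and 16.2 FPKM in syn-HSCT and at 5.77, 5.72 and 5.84 FPKM in allo-HSCT. It was 2.93-fold lower (log2 fold change -1.40, SE 0.0792, limma adjusted p = 3.28e-07), the largest fall of a tested receptor in the family. Tnfrsf1a, which encodes the widely expressed TNFR1, fell from 41.9 ± 3.37 to 24.3 ± 1.68 FPKM (SD, n = 3 each; 1.73-fold, limma adjusted p = 3.07e-05). Tnfrsf21, which encodes the death receptor DR6, fell 2.14-fold, Tnfrsf12a, the TWEAK receptor Fn14, 1.70-fold, and Tnfrsf13b, the BAFF and APRIL receptor TACI, 1.42-fold. The macrophage, granulocyte and dendritic cell markers moved in the same libraries. Granulocyte markers had 6 lower and 6 higher of 12 and sums of 1676 to 1698 and then 864 to 1002 FPKM. The sum hides a split. Mpo (mean 512 to 88.0 FPKM), Prtn3 (418 to 63.9), Elane, Ctsg, Csf3r and Ly6g fell. Lcn2 (60.7 to 143 FPKM), Ngp (234 to 385), Ltf, Mmp9, Retnlg and Cxcr2 rose. Dendritic cell markers had 7 lower and 3 higher of 11 and sums of 364 to 370.0 and then 321 to 331 FPKM. That sum hides a split as well. Its largest part, Ccr7, rose from a mean of 119 to 196 FPKM, and Xcr1 and Batf3 rose 4.88-fold and 1.42-fold. The largest falls were those of Siglech (22.9-fold), Cd209a (12.4-fold) and Clec10a (7.82-fold). No marker of these lists in the table was at 0 in any library, and their part in the falls was not tested. The receptors Tnfrsf11a, Tnfrsf17, Ngfr and Eda2r were too low to test, with 235, 77, 1 and 10 reads over the allo-HSCT and 319, 47, 15 and 13 over the syn-HSCT libraries.

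Of 19 known ligand and receptor pairs of the family, 11 had both partners tested and 9 had both called. Both partners rose in 3 pairs, both fell in 2, and they moved in opposite directions in 4. Over all tested genes 93.7% were called, 47.9% higher and 45.8% lower, so these counts say nothing particular of the pairs. The directions of the pairs depend on the scale: after Cd3 scaling both partners were called in 5 pairs, lower in all 5, and no pair had both higher or opposite calls. On the deposited scale LIGHT and HVEM, CD30 ligand and CD30, and BAFF and its receptor rose together. TNF and TNFR1, and TWEAK and Fn14, fell together. OX40 rose while its ligand fell, with log2 fold changes of 0.54 and -0.92, and the lymphotoxin β receptor fell while its ligands Ltb and Tnfsf14 rose. BAFF rose while TACI fell. Cd40lg rose beside Cd40 at 2.39 to 2.63 FPKM over the syn-HSCT and 2.45 to 3.49 over the allo-HSCT libraries, which overlapped (95% interval of the log2 difference from -0.07 to 0.38). Pairs share partners, so they are not independent of each other.

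**Figure D3:**
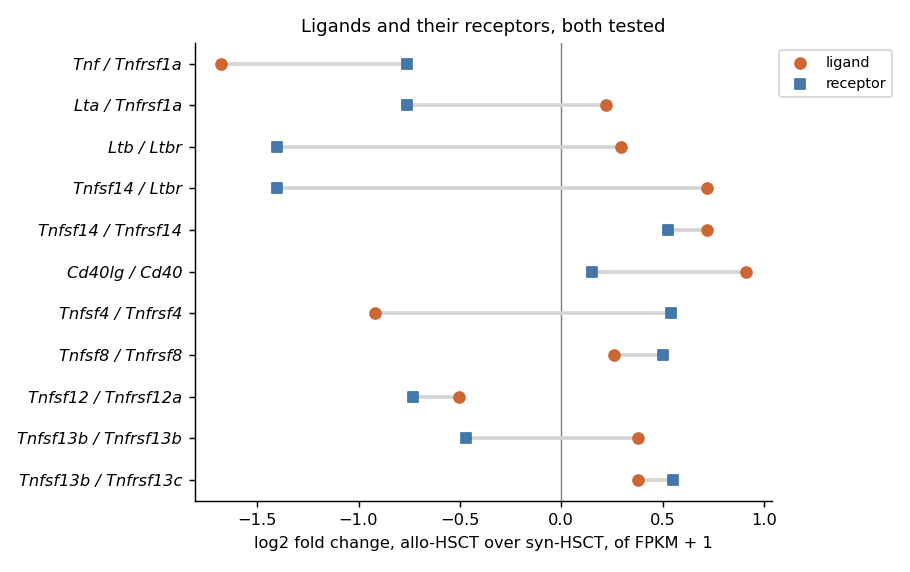
Log2 fold change of FPKM + 1, allo-HSCT over syn-HSCT, of the ligand (circle) and the receptor (square) of the 11 pairs with both partners tested; a grey bar joins each pair. The bars of Tnfsf4 and Tnfrsf4 (-0.92 and 0.54) and of Ltb and Ltbr (0.30 and -1.40) cross 0, and those of Tnfsf8 and Tnfrsf8 (0.26 and 0.50) lie on the higher side; after Cd3 scaling no pair had opposite calls or both partners higher.

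Several family genes are neighbours in the genome, in the gene order of RefSeq (GRCm38.p6), and neighbours did not always move alike. On chromosome 17 Tnf lies between Ltb and Lta with no coding gene between them; Tnf fell by 1.68 on the log2 scale beside Ltb at 0.30 and Lta at 0.22. This locus is in the major histocompatibility region, whose sequence differs between the donor strains, and how reads of each strain matched the authors' reference was not tested. Also on chromosome 17, Tnfsf9, Cd70 and Tnfsf14 follow each other directly; Tnfsf9 fell and Tnfsf14 rose. On chromosome 1 Tnfsf4, which fell, is separated from Fasl, which rose, only by Tnfsf18. On chromosome 6 Cd27, Ltbr and Tnfrsf1a are in a row with 1 coding gene between each, at log2 fold changes of 0.43, -1.40 and -0.76. Tnfrsf4 and Tnfrsf18, adjacent on chromosome 4, both rose, and so did the adjacent Tnfrsf26 and Tnfrsf22 on chromosome 7. The strand setting of the counting is not given, so reads of overlapping neighbours may be mixed.

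Downstream of the receptors, 41 genes for TRAF adaptors, ubiquitin enzymes and NF-κB factors were listed. The table holds 15, and of 14 tested 11 rose and 2 fell, with a median log2 fold change of 0.44. Over all tested genes 47.9% rose and 45.8% fell, with a median of 0.20, which marks no typical gene of this table. Bcl3, a nuclear partner of NF-κB p50 and p52, rose 1.80-fold from 13.4 ± 0.0515 to 24.1 ± 3.10 FPKM (SD, n = 3 each; limma adjusted p = 4.92e-05). Map3k14, the kinase NIK of the alternative NF-κB pathway, rose 1.73-fold, Traf1, an adaptor of TNFR2, OX40 and related receptors, 1.58-fold, and Ikbkg, the IKK subunit NEMO, 1.58-fold. Relative to the Cd3 genes Bcl3, Map3k14, Traf1 and Ikbkg did not pass, with log2 fold changes of 0.06, 0.0016, -0.11 and -0.10. Nfkbid, a nuclear IκB protein, fell from 89.9 ± 10.2 to 50.7 ± 5.58 FPKM (SD, n = 3 each; limma adjusted p = 8.57e-05), and Nfkbie, another IκB, fell with a log2 fold change of -0.37. Tnfaip3, the deubiquitinase A20 that restrains TNF signalling, was the most abundant of them, with means of 583 FPKM over the syn-HSCT and 675 FPKM over the allo-HSCT libraries, and did not pass (log2 fold change 0.21, limma adjusted p = 0.0586).

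Of 19 death receptor genes 5 were in the table. Ptpn13, a phosphatase that binds Fas, rose 2.74-fold from 2.63 ± 0.196 to 7.21 ± 0.572 FPKM (SD, n = 3 each; limma adjusted p = 1.53e-06). Cflar, which encodes the caspase-8 inhibitor c-FLIP, rose 1.37-fold, and Fadd, the adaptor that links Fas to caspase-8, 1.16-fold. The Fadd call was marginal (limma adjusted p = 0.0430). It was lost when any library but allo-HSCT replicate 1 was left out (limma adjusted p = 0.0568 to 0.146), with the replicate block (0.0888), with no filter on low values (0.0586) and in the count-based voom fit (0.0625). Bid, which carries the death signal to mitochondria, fell from 25.6 ± 0.664 to 14.0 ± 1.71 FPKM (SD, n = 3 each; limma adjusted p = 2.55e-05). Daxx did not pass (log2 fold change 0.23).

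Of 12 genes for release and mRNA control of TNF 7 were in the table and 5 tested. Zfp36 encodes tristetraprolin, which binds AU-rich elements in Tnf mRNA and speeds its decay. It fell with Tnf, from 887 ± 38.7 to 420.0 ± 58.1 FPKM (SD, n = 3 each; log2 fold change -1.09, SE 0.111, limma adjusted p = 1.69e-05). Its relatives Zfp36l1 and Zfp36l2 rose 1.27-fold and 1.33-fold. Litaf, named as a factor induced with TNF by lipopolysaccharide, fell with a log2 fold change of -0.67, and Frmd8, a partner of the rhomboid proteins needed for TNF shedding, rose 1.49-fold.

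Genes commonly induced through NF-κB were divided. Of 25 listed, 17 were tested, 7 rose and 10 fell, with a median log2 fold change of -0.67. The largest falls were those of Cxcl2 (log2 fold change -3.72), Cxcl1 (-3.12), Ccl2 (-2.28) and Ier3 (-2.03), followed by Ptgs2 (-1.87). Macrophages make these products too, and 9 of their 10 measured markers fell in these isolates; that part was not tested. Of those that rose, named after their values were seen, Csf2, the cytokine GM-CSF of activated T cells, went from 1.07 ± 0.141 to 4.37 ± 1.098 FPKM (SD, n = 3 each; limma adjusted p = 1.69e-05), and Ccl5, a chemokine of cytotoxic T cells, rose 1.73-fold. Il12b rose 3.35-fold, from 0.640 to 2.15 FPKM, with every syn-HSCT library under 1 FPKM, and Csf1 rose 1.47-fold. Ccl3 and Ccl4, chemokines that cytotoxic T cells and macrophages both make, fell, with log2 fold changes of -1.22 and -0.67. The survival genes Bcl2a1a, Bcl2a1b and Bcl2a1d rose 1.73-fold to 1.92-fold and are near copies among which reads can be split. Over these 4 lists 39 of 41 tested genes passed, 24 higher and 15 lower, near the background of 93.7%. Relative to the Cd3 genes 28 passed, 3 higher and 25 lower, against 80.2% of all genes, nearly all of them lower, so neither count is particular to the lists.

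**Figure D4:**
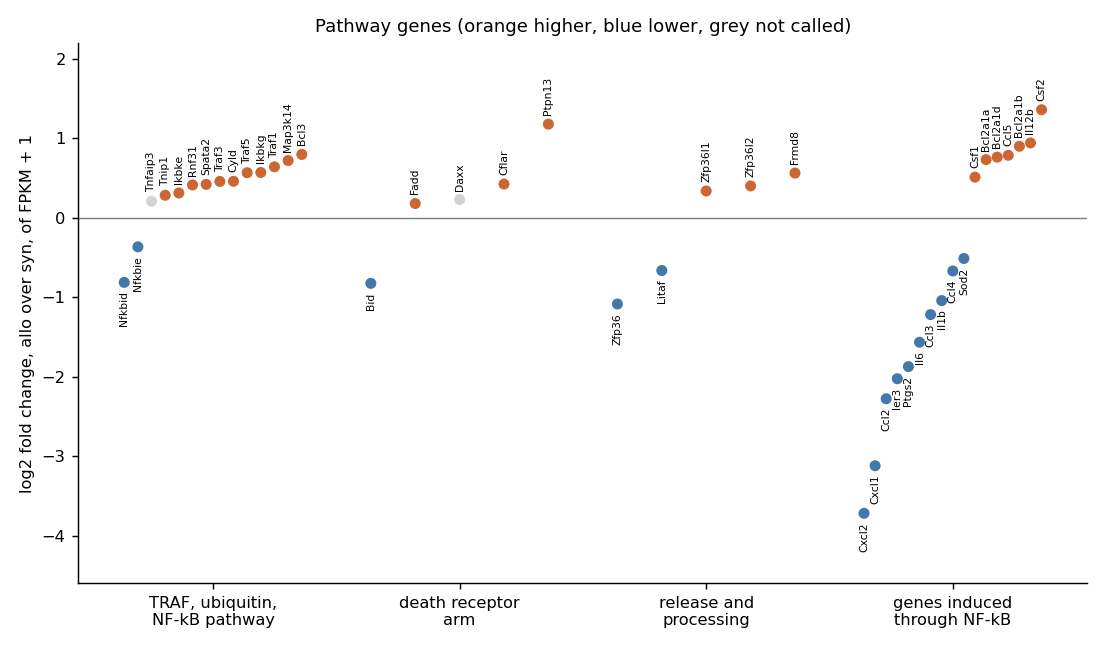
Log2 fold change of FPKM + 1, allo-HSCT over syn-HSCT, of the tested genes of 4 pathway lists; orange is higher, blue lower and grey not called by limma. The NF-κB induced genes spread from -3.72 for Cxcl2 to 1.36 for Csf2, and 11 of 14 genes of the TRAF, ubiquitin and NF-κB list lie on the higher side past the threshold. Over all tested genes 47.9% do.

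For the 5 genes named first by the rule, the tested genes with the most similar pattern over the 6 libraries were found by the root mean square difference in log2(FPKM + 1), each gene centred on its mean. Nearest to Tnf were Cyp27a1, a sterol hydroxylase, Tsc22d1 and the cytokine gene Il17a, at differences of 0.0365, 0.0370 and 0.0371. The place of Il17a is set by the pseudocount: it went from 4.09 to 0.576 FPKM, a 7.09-fold fall against 3.27-fold for Tnf, and reached 1 FPKM in the syn-HSCT libraries alone. Nearest to Fasl were Lpxn (0.0371), the MHC class II gene H2-Aa (0.050004) and the interferon-induced GTPase gene Gbp5 (0.0509). Nearest to Cd40lg were Septin3 (0.0286), Ubash3b (0.0441), a regulator of T cell receptor signalling, and Rasgrp1 (0.0471), a Ras activator in T cells. Septin3 is likewise near only through the pseudocount, having gone from 0.246 to 1.28 FPKM (5.18-fold, against 1.92-fold for Cd40lg) and reached 1 FPKM in the allo-HSCT libraries alone. Tnfrsf4 was closest to Traf3ip3 (0.0309), Cd274, which encodes PD-L1 (0.0345), and Gimap8 (0.0386). Tnfrsf18 was closest to Zfp266 (0.0257), Cd55 (0.0290) and Rc3h2 (0.0330). The libraries fall in 2 groups, so a gene with a like difference between the groups scores as similar.

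**Figure D5:**
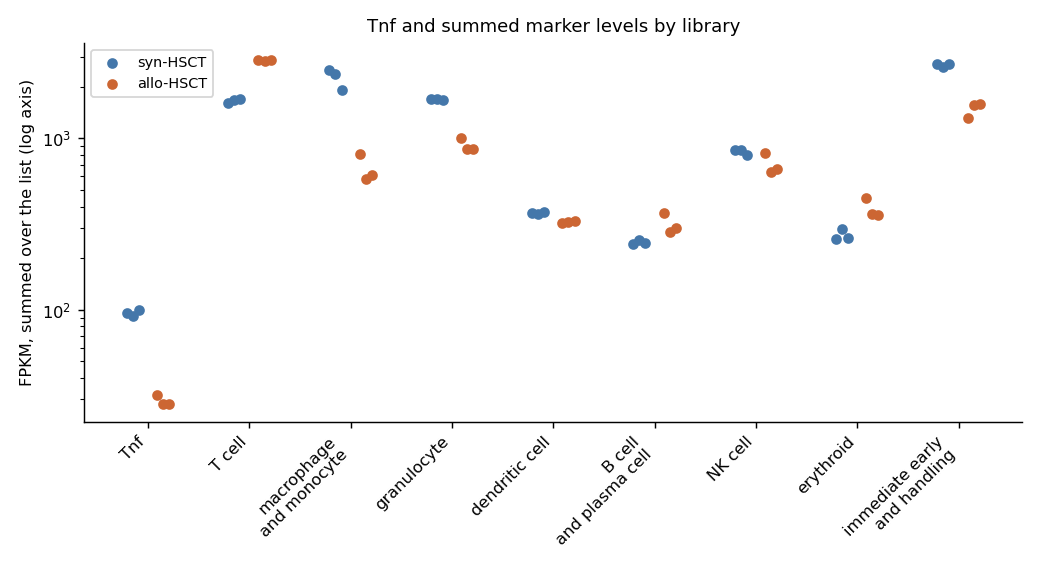
FPKM of Tnf and FPKM summed over each marker list (log axis) in the 3 syn-HSCT and 3 allo-HSCT libraries, 1 point per library. Tnf and the macrophage and monocyte sum (1922 to 2515, then 582 to 814 FPKM) are lower in all allo-HSCT libraries, and the T cell sum (1599 to 1687, then 2813 to 2868 FPKM) is higher.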

How the data were processed

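RNA of splenic CD3+ T cell isolates was sequenced after ribosomal RNA depletion, per the labels' protocols. Limma is listed among the tools, per the submitters' processing notes, with no step given for it, and no aligner, counter, build or strand setting is named there. The authors' deposited table holds 1 value per gene and library with no unit in its header. The deposited values were treated as FPKM, because with a gene length and library totals of 15642385 to 17524496 reads all values of 8468 of 8468 genes came to whole reads, none more than 2.61e-05 off. That length was inferred, as the smallest that gave whole reads in all libraries, and not taken from an annotation. With annotated lengths, 118 to 126 of 984 to 993 single-transcript genes above 0 in a library came to whole reads. Totals and reads are therefore inferred values. The median was 165.0 reads (over genes and libraries), and the listed genes take 42.15% to 45.50% of a library. For 4825 genes with a mean above 100 reads, no log2 ratio of group means lay between -0.37 and 0.21, so members outside the table may be unchanged and the adjusted p-values describe this table only.

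Genes with at least 1 FPKM in at least 3 libraries entered a limma 3.58.1 fit in R 4.3.3 of all 6 libraries without covariates, on the log2(FPKM + 1) scale and with variances shrunk to a trend on mean level, and p-values were Benjamini-Hochberg adjusted over all 5460. The scale understates changes of low genes; folds are ratios of mean FPKM. The test was checked on simulated counts. The members and gene lists were chosen with earlier results of these data known. Genes named are all members and every other family gene in the table. Of each pathway list up to 5 called genes with the largest change are named. The 3 genes nearest to each of 5 members are named too. Nfkbie, Tnfaip3, Daxx, Csf2, Ccl5, Ccl3, Ccl4, Il12b, Csf1, the Bcl2a1 genes and single markers were added after their values were seen. Alternatives varied the pseudocount, filter, scaling, weights and libraries.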

Additional observations from a re-analysis of the deposited data

How the results depend on the processing

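The labels state no pairing of the libraries, and replicate numbers were not used to pair them. Same-numbered libraries deviated from their group means with correlations of -0.02, -0.20 and 0.08 across genes. Not every library matched its own number best. With 3 libraries per group these correlations cannot exclude a shared batch of small effect. With the replicate block 5105 genes passed, against 5118 without it, and the 8 members kept their calls. Leaving out 1 library gave 4657 to 5190 genes and 7 to 8 of the 8 members. Over the 16 alternatives other than Cd3 scaling, 127 of 128 member values kept direction and side of the threshold, Tnfsf8 without syn-HSCT replicate 1 being the exception; Tnf ranged from -1.74 to -1.45 and Fasl from 0.78 to 1.14. With a mean of at least 5 FPKM, 10 of 11 other family genes tested passed, against 17 of 19, since fewer were tested. The count-based voom fit and removal of a gene length trend were added after seeing the data and called the same number of members, 8.

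With all libraries kept, 3487 of 3595 genes passed with a mean of at least 5 FPKM and 6175 of 8468 with no filter; of the 5460, 4353 passed with the length trend removed and 4378 with Cd3 scaling. Directions and member calls changed most on scaling to the Cd3 genes. It gave 276 genes higher and 4102 lower, against 2618 and 2500, and 4 of 8 members passed, since the scaling takes the rise of the Cd3 genes from every gene. The log2 fold change turned to -0.49 for Tnfsf8, -0.22 for Tnfrsf4, -0.40 for Tnfrsf18, -0.45 for Lta, -0.48 for Ltb, -0.41 for Cd40, -0.33 for Cd27, -0.20 for Tnfrsf14, -0.24 for Tnfrsf25, -0.12 for Tnfrsf26, -0.11 for Traf1, -0.10 for Ikbkg, -0.31 for Cflar, -0.47 for Fadd, -0.20 for Frmd8, -0.37 for Zfp36l2 and -0.43 for Zfp36l1. Lta and Cd40, not called in the report, passed with quantile normalization (limma adjusted p = 0.0313 and 0.0251) and with the length trend removed (0.00282 and 0.00595); Lta also passed with sample medians set equal, with sample quality weights and without allo-HSCT replicate 2, and Cd40 without allo-HSCT replicate 3. Ligands under 1 FPKM rest on few reads and were not tested.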
